A study of Mus musculus with 6 samples.

Results

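The Trbv13 family holds the 3 V genes of the mouse TCR-β locus that older nomenclature calls Vβ8. TRBV13-1 corresponds to the older symbol Tcrb-V8.3, TRBV13-2 to Tcrb-V8.2 and TRBV13-3 to Tcrb-V8.1. Its use was described in CD4+ T cells from 2 organs of mice with fibrosis-memory, the obstructed left kidney and the spleen. Members were all clonotypes of the 6 libraries whose best V gene was 1 of these 3 genes and whose CDR3 had neither a stop codon nor a frameshift. This gave 90318 of 330061 coding clonotypes, summed over the libraries, of which 24014 used Trbv13-1, 37850 used Trbv13-2 and 28454 used Trbv13-3. A clonotype is a distinct combination of V gene, J gene and nucleotide sequence of the CDR3.

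All 3 mice were female C57BL/6 wildtype mice of 10 to 14 weeks, and all went through the same procedures. In each, the ureter of the right kidney was obstructed on day 0 and released on day 6, which is called reversible unilateral ureteral obstruction (RUUO). Permanent obstruction of the left kidney (UUO) followed on day 17, and that kidney and the spleen were taken on day 22. The kidney group (n = 3) and the spleen group (n = 3) therefore differ in the organ, and libraries with the same number come from the same mouse. Cells were isolated as CD4+ in a different sequence of magnetic steps for kidney and spleen and then sorted, and a TCR-β library holds no other transcript with which the CD4+ label could be checked.

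A TCR-β chain is made in the thymus by joining 1 V, 1 D and 1 J gene segment, with bases trimmed and added at the joints. The V gene encodes the loops of the receptor that mainly touch the MHC molecule, while the joints make up the CDR3, the loop that mainly touches the peptide. As background, receptors with Trbv13 genes are well known in mice for binding staphylococcal enterotoxin B, and Trbv13-2 is the V gene most used by invariant NKT cells.

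In the GRCm38.p6 annotation, the members lie on chromosome 6 and alternate with genes of the Trbv12 family. Trbv13-1 is at chr6:41116036-41116468, Trbv13-2 at chr6:41121396-41121832 and Trbv13-3 at chr6:41130147-41130585. Trbv12-2 lies between the Trbv13-1 and Trbv13-2 genes, and the pseudogene Trbv12-3 between the Trbv13-2 and Trbv13-3 genes. The V-encoded start of the CDR3 was read from spleen clonotypes from which no base of the V gene had been removed, as the most frequent sequence of each gene, and is shown because it sets Trbv13-2 apart from the other members. The capital marks the only position that differs, and the stretch is the same in Trbv13-1 and Trbv13-3.
Trbv13-1: tgtgccagcAgtgatg
Trbv13-2: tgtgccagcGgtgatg
Trbv13-3: tgtgccagcAgtgatg
The sequence shown was carried by 90.8%, 89.3% and 90.5% of these clonotypes of Trbv13-1, Trbv13-2 and Trbv13-3, respectively. Trbv13-2 differed from Trbv13-1 by A10G, counted from the first base of the conserved cysteine codon. The fourth residue of the CDR3 is thereby serine in Trbv13-1 and Trbv13-3 and glycine in Trbv13-2, so that an untrimmed CDR3 begins with CASSD or CASGD.

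Unique molecular identifiers (UMIs), random tags added to each mRNA molecule before amplification, allowed molecules to be counted in place of reads. The kidney libraries held 693 to 1248 coding UMIs and the spleen libraries 97735 to 224811, and a UMI was read on average 467 to 793 times in the kidneys and 8.53 to 21.2 times in the spleens. The family contributed 187 to 340 UMIs and 134 to 225 clonotypes per kidney, against 28338 to 64415 UMIs and 22080 to 38623 clonotypes per spleen. Values for single kidneys therefore carry a counting error of several percentage points. Intervals given below are exact 95% binomial intervals and cover counting error only. UMIs count mRNA molecules, so that more cells of a clone and more mRNA per cell cannot be told apart.

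Trbv13-2 was the most used member in the spleen and Trbv13-1 the least used. Trbv13-2 accounted for 10.7%, 11.3% and 11.7% of the coding UMIs in the spleens of mice 1, 2 and 3, Trbv13-3 for 8.94%, 9.36% and 9.60%, and Trbv13-1 for 7.65%, 7.99% and 7.71%. The ranges of the 3 genes did not overlap. Trbv13-2 exceeded Trbv13-3 by 0.27 ± 0.013 on the log2 scale (SD, n = 3) and Trbv13-3 exceeded Trbv13-1 by 0.26 ± 0.053 (SD, n = 3), each in 3 of 3 mice (p = 0.25 in an exact sign-flip test, the lowest value possible with 3 mice). Among the 24 Trbv genes of each spleen, Trbv13-2 ranked 1 or 2, Trbv13-3 ranked 3 or 4 and Trbv13-1 ranked 5 or 6 by UMIs.

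In the kidney, the order of the members was less regular by UMIs. Trbv13-2 accounted for 11.6%, 9.94% and 11.1% of the UMIs of kidneys 1, 2 and 3, Trbv13-3 for 7.89%, 10.0% and 10.1%, and Trbv13-1 for 10.5%, 7.29% and 5.77%. The ranges of the 3 genes overlapped, and neither Trbv13-2 and Trbv13-3 (log2 ratio 0.23 ± 0.30, SD, n = 3) nor Trbv13-3 and Trbv13-1 (0.29 ± 0.63, SD, n = 3) differed beyond their spread. Trbv13-2 exceeded Trbv13-1 by 0.51 ± 0.40 (SD, n = 3) in 3 of 3 kidneys, although the ranges overlapped. Counted by distinct clonotypes, the order of the spleen was found in 3 of 3 kidneys without overlap, with log2 ratios of 0.60 ± 0.23 for Trbv13-2 over Trbv13-3 and 0.35 ± 0.22 for Trbv13-3 over Trbv13-1 (SD, n = 3 each). By UMIs, kidney 1 had the highest share of Trbv13-1 and the lowest of Trbv13-3. The exact 95% interval of the Trbv13-1 share ran from 8.41% to 12.9% in kidney 1 and from 4.16% to 7.78% in kidney 3. These intervals treat the UMIs of a clonotype as separate draws. The 3 largest clonotypes held 35.8% of the Trbv13-1 UMIs of kidney 1 and 25.0% of those of kidney 3. By clonotypes, the Trbv13-1 share was 6.21% in kidney 1 and 6.77% in kidney 3.

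**Figure D1:**
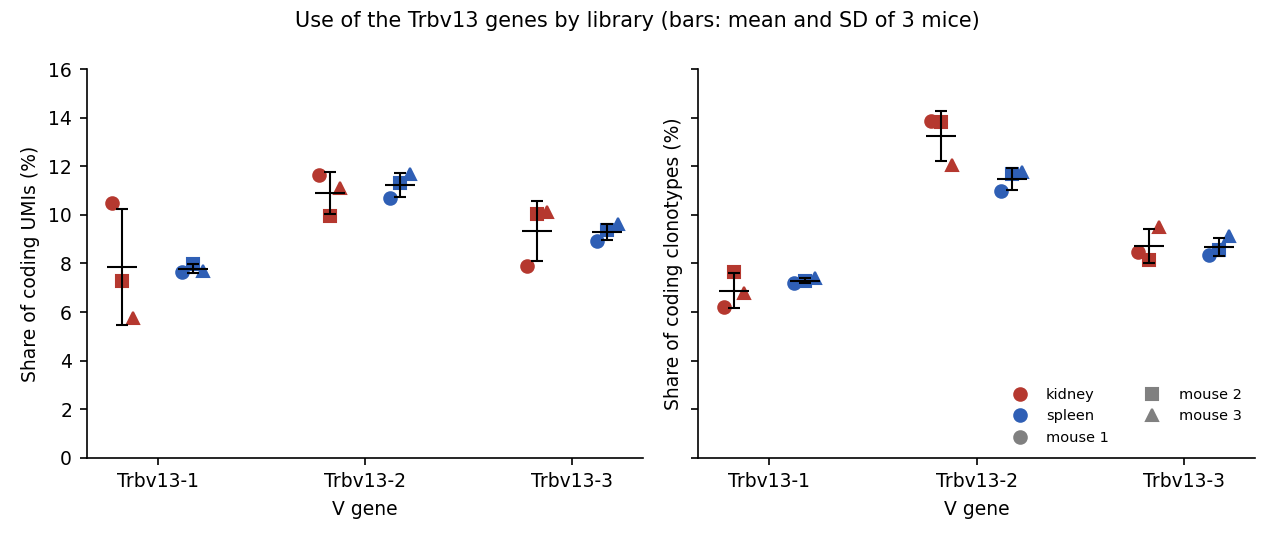
Share of coding UMIs (left) and of distinct coding clonotypes (right) for Trbv13-1, Trbv13-2 and Trbv13-3 in percent, in kidney (red) and spleen (blue), with 1 symbol per mouse and the mean and SD of 3 mice. By UMIs, kidneys and spleens overlap for each gene, while by clonotypes the 3 kidneys lie above the 3 spleens for Trbv13-2.

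Whether the family was used differently in the 2 organs was tested next. Together, the members made up 30.01%, 27.2% and 27.0% of the UMIs of kidneys 1, 2 and 3 and 27.3%, 28.7% and 29.0% of those of spleens 1, 2 and 3. The kidney mean was 28.1% ± 1.68 (SD, n = 3) and the spleen mean 28.3% ± 0.916 (SD, n = 3), which corresponds to a log2 ratio of -0.013 (two-sided exact permutation test, p = 0.8). Weighted by reads in place of UMIs, it was 0.15 (p = 0.1 by exact permutation). With 3 libraries against 3, this test cannot give a p below 0.1, and 73 comparisons of this kind were made over the family, its members and the other Trbv genes. In the edgeR quasi-likelihood test over all Trbv genes, 1 of 24 (4.17%) passed an adjusted p of 0.05, and it was no member. The log2 fold change of kidney over spleen was 0.01 (SE 0.16) for Trbv13-1, -0.05 (SE 0.15) for Trbv13-2 and 0.01 (SE 0.15) for Trbv13-3 (edgeR, adjusted p = 0.96 for each). The median over the 3 members was 0.01, against -0.09 over all 24 genes. The sign of each of these values changed under some of the other settings tried, and none passed the threshold under any of the 10.

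Counted by clonotypes, which gives a large clone no more weight than a small one, Trbv13-2 stood higher in the kidney. It supplied 13.9%, 13.8% and 12.1% of the clonotypes of kidneys 1, 2 and 3 and 10.96%, 11.7% and 11.8% of those of the spleens, and every kidney lay above every spleen. On the log2 scale the kidneys exceeded the spleens by 0.21, and by 0.21 again when all libraries were rarefied to 693 UMIs (p = 0.1 by exact permutation in each case). For the single members, Trbv13-1 below included, this rarefaction was tried after seeing the data. For Trbv13-2, the edgeR test on clonotypes gave 0.22 with an adjusted p of 0.20, which did not pass the threshold. Of all 24 Trbv genes, 0 passed in that test and 3 had an unadjusted p under 0.05. How many of the 24 separated without overlap was not counted. Trbv13-1 supplied 6.21%, 7.63% and 6.77% of kidney clonotypes and 7.18%, 7.28% and 7.40% of spleen clonotypes, with overlapping ranges (log2 ratio -0.09, exact permutation test, p = 0.4). At 693 UMIs per library the ranges no longer overlapped, with 6.39%, 7.51% and 6.77% in kidneys 1, 2 and 3 and 7.56%, 7.96% and 7.71% in the matching spleens (log2 ratio -0.17, p = 0.1 by exact permutation). Trbv13-3 supplied 8.49%, 8.16% and 9.51% of kidney clonotypes, against 8.36%, 8.55% and 9.11% of spleen clonotypes (log2 ratio 0.01, exact permutation test, p = 1.0). The whole family made up 28.6%, 29.6% and 28.3% of kidney clonotypes and 26.5%, 27.5% and 28.3% of spleen clonotypes. Every kidney lay above every spleen (log2 ratio 0.07, exact permutation test, p = 0.1), but the organs overlapped at 693 UMIs per library, with 28.3% to 29.1% in the kidneys and 27.1% to 29.0% in the spleens (log2 ratio 0.02, exact permutation test, p = 0.7). Over clonotypes with at least 2 UMIs, the family's log2 ratio was -0.06 (p = 0.4 by exact permutation).

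Within the family, the share of Trbv13-2 depended on what was counted. In the kidneys it held 38.8% ± 2.35 (SD, n = 3) of the family's UMIs but 45.9% ± 3.08 (SD, n = 3) of its clonotypes. The corresponding values in the spleens were 39.6% ± 0.592 and 41.8% ± 0.557 (SD, n = 3 each). Trbv13-1 held 21.7% to 25.8% of the family's clonotypes in the kidneys, below the 26.2% to 27.1% of the spleens (log2 ratio -0.16, p = 0.1 by exact permutation). Kidney clonotypes of Trbv13-2 had 1.34, 1.18 and 1.35 UMIs on average in mice 1, 2 and 3, those of Trbv13-1 had 2.70, 1.57 and 1.25, and those of Trbv13-3 had 1.49, 2.02 and 1.56. No Trbv13-2 clonotype reached 10 UMIs in any kidney, and its largest had 7, 3 and 5 UMIs. Over the whole family, kidney clonotypes had 1.53 ± 0.144 UMIs and spleen clonotypes 1.48 ± 0.193 (SD, n = 3 each; log2 ratio 0.05, exact permutation test, p = 0.7). This mean depends on depth, and with all libraries rarefied to 693 UMIs it was 1.37 to 1.63 in the kidneys and 1.00 to 1.01 in the spleens (log2 ratio 0.54, exact permutation test, p = 0.1).

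Over the 6 libraries, which share their mice in pairs, the log2 shares of UMIs of Trbv5 (Pearson's r = 0.64) and Trbv31 (r = 0.57) correlated most with that of the family. These were the highest values of the 17 other Trbv genes present in every library. The lowest, -0.66 for Trbv20, was of similar size. Shares of the same library are not independent, and the correlations were not tested.

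J gene pairing was examined next, in the spleens, where the family had enough UMIs. Trbj2-7, which lies nearest to the constant gene of its cluster, was the most used J gene with 16.8%, 17.3% and 18.2% of the family's UMIs in spleens 1, 2 and 3. Trbj1-5 was the least used with 2.67%, 2.77% and 2.72%. Compared with all other Trbv genes of the same libraries, 6 of the 12 Trbj genes (50%) passed an adjusted p of 0.05 in edgeR with the mouse as a block, of which 4 were higher and 2 lower in the family.

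Trbj1-3 showed the largest excess. It was joined to 6.40%, 7.15% and 6.11% of the family's UMIs in spleens 1, 2 and 3 and to 5.32%, 5.41% and 4.98% of those of the other genes, without overlap (log2 fold change 0.33, SE 0.039, edgeR, adjusted p = 1.8e-07). Trbj1-6 was joined to 3.86%, 3.85% and 3.26% of the family's UMIs and to 3.15%, 3.03% and 2.90% of the others' (0.28, SE 0.040, edgeR, adjusted p = 1.0e-06). Not every member shared this excess. Trbj1-6 was joined to 2.86%, 3.21% and 2.71% of the Trbv13-1 UMIs, below the others in spleens 1 and 3. For Trbv13-2 the shares were 3.49%, 4.11% and 3.46%, and for Trbv13-3 they were 5.16%, 4.07% and 3.47%. In spleen 1, 1 clonotype held 150 of the 738 UMIs of Trbv13-3 with Trbj1-6, and by clonotypes the share there was 4.41%. Trbj1-1 was lower in the family in every spleen, with 8.77%, 9.001% and 8.58% against 10.7%, 11.1% and 10.3% (-0.29, SE 0.036, edgeR, adjusted p = 1.8e-07). These 3 genes passed the threshold under all 8 alternatives.
The other 3 calls were smaller, with log2 fold changes of 0.11 for Trbj1-2, 0.10 for Trbj2-4 and -0.11 for Trbj2-2 (edgeR, adjusted p = 0.022, 0.022 and 0.024). They passed in 5, 3 and 3 of the 8 alternatives, respectively. By the split between the clusters, the family did not stand apart, since Trbj1 genes held 33.9% ± 1.82 (SD, n = 3) of its UMIs and 33.7% ± 1.19 (SD, n = 3) of those of the other genes.

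**Figure D2:**
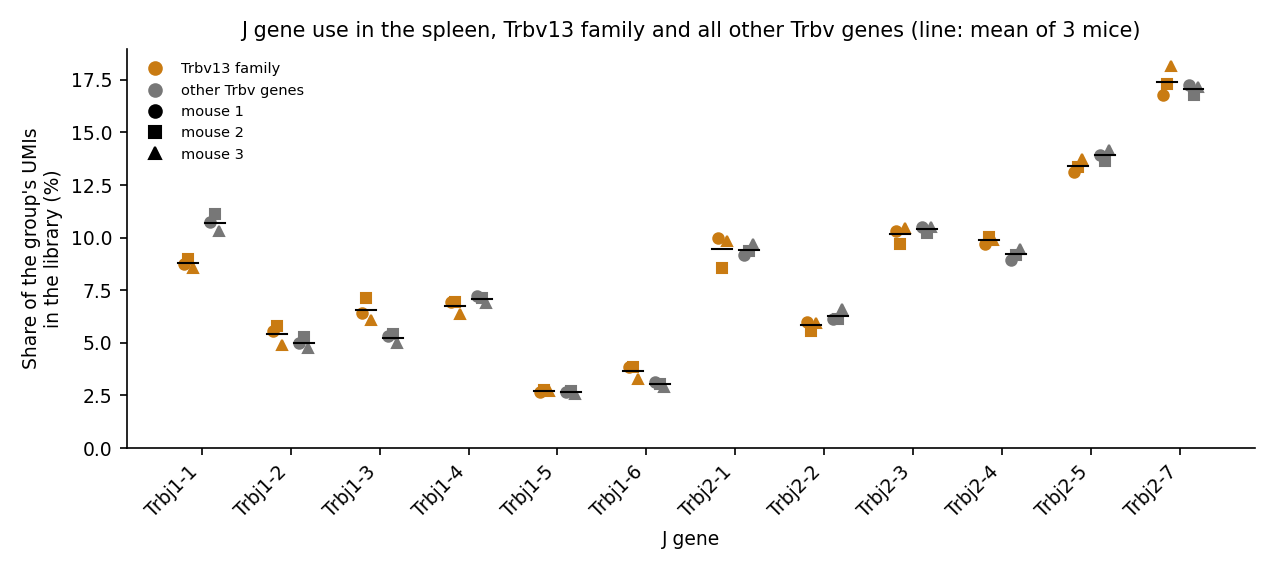
Share of UMIs in percent joined to each of the 12 Trbj genes in the spleen, for the Trbv13 family (orange) and all other Trbv genes (grey), with 1 symbol per mouse and a line at the mean. Family values lie above the others' in all 3 mice for Trbj1-3 and Trbj1-6 and below them for Trbj1-1.

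The members also had J shares that differed from each other in these spleens. Trbj2-5 was joined to 10.6%, 10.7% and 11.3% of the Trbv13-3 UMIs in spleens 1, 2 and 3, against 14.6%, 14.2% and 15.3% of those of Trbv13-2 and 13.9%, 15.2% and 14.4% of those of Trbv13-1. Trbj1-3 was joined to 7.38%, 7.82% and 7.05% of Trbv13-3, 6.29%, 7.36% and 5.66% of Trbv13-2 and 5.42%, 6.07% and 5.62% of Trbv13-1. Differences between members were not tested. Over the 12 Trbj genes, with the mean of 3 spleens, the profile of Trbv13-1 was most like that of Trbv13-2 (Pearson's r = 0.98 across J genes) and then that of Trbv20 (r = 0.98). Outside the family, the profile of Trbv13-2 was most like that of Trbv3 (r = 0.97) and that of Trbv13-3 most like that of Trbv20 (r = 0.96). For Trbv13-3, Trbv20 ranked above both other members, with Trbv13-1 at rank 2 (r = 0.96) and Trbv13-2 at rank 7 (r = 0.92). Usage shares that all Trbv genes have in common make such values high.

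Between kidney and spleen, none of the 36 V-J pairs of the family passed an adjusted p of 0.05, against 2 of 270 pairs (0.741%) over all Trbv genes (edgeR). With the mouse as a block, 0 of the 270 passed in edgeR, and 11 had an unadjusted p under 0.05. At an unadjusted p under 0.05 there were 31 of the 270 pairs (11.5%), of which 3 were pairs of the family, and all 3 involved Trbv13-3. The pair of Trbv13-3 with Trbj2-7 had a log2 fold change of 0.96 (SE 0.30, edgeR, adjusted p = 0.26). It made up 1.16%, 4.17% and 2.74% of the UMIs of kidneys 1, 2 and 3, against 1.33%, 1.53% and 1.61% in the spleens, so that kidney 1 lay below all spleens. Without mouse 1 this pair passed the threshold (log2 fold change 1.21, edgeR, adjusted p = 0.0036), without mouse 2 its log2 fold change was 0.38 (adjusted p = 0.82), and counted by clonotypes its log2 fold change was 0.24 (edgeR, adjusted p = 0.90). The pairs with Trbj1-3 (-1.90, SE 0.52, edgeR, adjusted p = 0.13) and Trbj1-2 (-1.70, SE 0.62, edgeR, adjusted p = 0.36) rested on 5 and 4 kidney UMIs in all. In kidney 2, the family's 52 UMIs of Trbv13-3 with Trbj2-7 came from 9 clonotypes, and the largest of them held 28 and 14 UMIs.

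For Trbv13-3 as a whole, Trbj1 genes were joined to 23.0%, 16% and 21.4% of the UMIs in kidneys 1, 2 and 3 and to 37.3%, 36.7% and 33.4% in the spleens. By clonotypes, the kidneys had shares of 31.7%, 27.4% and 24.4%, against 36.9%, 37.5% and 34.7% for the spleens. No kidney overlapped the spleens in either count. The split by cluster was chosen after its values were seen and was not tested. Trbv13-1 had the opposite order by clonotypes, with Trbj1 genes at 43.3%, 41.4% and 43.8% of kidney clonotypes, against 33.0%, 35.0% and 31.3% of spleen clonotypes. These kidney shares rest on only 30, 58 and 32 Trbv13-1 clonotypes, and those of Trbv13-3 on 41, 62 and 45. Each thus carries a wide counting error. By UMIs, its kidney values of 32.1%, 34.1% and 47.5% overlapped the spleen values of 31.3%, 34.1% and 30.6%. For the Trbv genes outside the family, Trbj1 genes held 32.9%, 41.3% and 33.0% of kidney UMIs. In the spleens they held 34.1%, 34.7% and 32.4%, with overlap. Single genes outside the family were not compared in this way.

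The CDR3 of the members was then compared. In the spleen, 95.7% ± 0.193 (SD, n = 3) of Trbv13-2 clonotypes began with CASG, while 86.1% ± 0.0531 of Trbv13-1 and 81.8% ± 0.872 of Trbv13-3 clonotypes began with CASS (SD, n = 3 each). Position 5, where the V genes encode aspartate, held aspartate in 51.8% ± 0.713 of Trbv13-2 clonotypes, 42.4% ± 0.424 of Trbv13-1 clonotypes and 42.2% ± 0.851 of Trbv13-3 clonotypes (SD, n = 3 each). All other Trbv genes had aspartate there in 2.81% ± 0.0220 of clonotypes (SD, n = 3). Trbv13-2 also lost the fewest V bases, 1.99 ± 0.0114 per clonotype, against 2.39 ± 0.0238 for Trbv13-1 and 2.64 ± 0.0304 for Trbv13-3 (SD, n = 3 each). Kidney clonotypes of Trbv13-3 had lost 2.31 ± 0.239 V bases (SD, n = 3), fewer than in every spleen (exact permutation test, p = 0.1). The other Trbv genes showed the same separation, with 2.30 to 2.37 bases in the kidneys and 2.46 to 2.48 in the spleens (p = 0.1 by exact permutation). In the kidney, aspartate was found there in 53.5% ± 8.93, 38.8% ± 7.29 and 47.6% ± 6.59 of Trbv13-2, Trbv13-1 and Trbv13-3 clonotypes, and each range included its spleen values (exact permutation test, p = 0.7, 0.4 and 0.4; SD, n = 3 each).

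CDR3 length was nearly the same in both organs. The UMI-weighted mean of the family was 13.9, 13.6 and 13.9 amino acids in kidneys 1, 2 and 3 and 13.8 in each spleen, with a difference of -0.041 amino acids (exact permutation test, p = 1.0). The most frequent length was 14 amino acids, with 27.4% ± 3.15 of UMIs in the kidney and 30.3% ± 0.0737 in the spleen (SD, n = 3 each). The lowest kidney mean, 13.4 amino acids for Trbv13-3 and 13.3 for Trbv13-1 in kidney 2, came from UMI-weighted values, whereas the means over clonotypes of that kidney were 14.02 and 13.6. For Trbv13-1 the mean over clonotypes was 13.7, 13.6 and 13.7 amino acids in the kidneys and 13.8 in each spleen, without overlap (difference -0.14, exact permutation test, p = 0.1). Within the spleens, Trbv13-2 was longer than the Trbv genes outside the family by 0.068 ± 0.015 amino acids per clonotype and Trbv13-1 shorter, with a difference of -0.027 ± 0.012, each in 3 of 3 mice (SD, n = 3; exact sign-flip permutation test, p = 0.25). The family as a whole was longer than the other genes by 0.027 ± 0.0083 amino acids per clonotype in 3 of 3 mice (p = 0.25 in an exact sign-flip test), and differed from them by -0.0030 ± 0.0099 when weighted by UMIs (SD, n = 3 each; exact sign-flip permutation test, p = 0.75).

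The largest family clonotype of each library is shown by its CDR3 sequence because each was present in both organs of its mouse. By the rule used, the 3 with the most UMIs in each library are named, except where the last place was tied. In every spleen, the clonotype with the most UMIs of the whole library was a Trbv13 clonotype. Lower case marks bases aligned to the V and J genes, and capitals mark the junction between them.
Mouse 1, Trbv13-1 with Trbj2-1: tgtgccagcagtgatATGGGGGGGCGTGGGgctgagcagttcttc
Mouse 2, Trbv13-1 with Trbj2-5: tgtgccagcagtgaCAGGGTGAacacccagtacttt
Mouse 3, Trbv13-3 with Trbj2-1: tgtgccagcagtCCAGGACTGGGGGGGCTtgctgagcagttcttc
The clonotype of mouse 1 had 359 UMIs in the spleen (0.224%, interval 0.202% to 0.249%) and 10 in the kidney (1.29%, interval 0.622% to 2.37%). That of mouse 2, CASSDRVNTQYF, had 234 UMIs in the spleen (0.104%, interval 0.0912% to 0.118%) and 21 in the kidney (1.68%, interval 1.04% to 2.56%). That of mouse 3 had 101 UMIs in the spleen (0.103%, interval 0.0842% to 0.126%) and 4 in the kidney (0.577%, interval 0.157% to 1.47%). In each mouse, the interval in the kidney lay above that in the spleen. The intervals treat UMIs of a clonotype as separate draws, and UMIs from 1 cell or from several cannot be told apart. Large clonotypes of other Trbv genes were not compared. None of the 3 clonotypes printed here had a UMI in a library of another mouse.

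Among kidney clonotypes, the largest of the family were the following.
Mouse 1, Trbv13-1 with Trbj2-5: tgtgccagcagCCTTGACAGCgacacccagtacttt
Mouse 2, Trbv13-3 with Trbj2-7: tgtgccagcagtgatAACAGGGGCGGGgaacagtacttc
Mouse 3, Trbv13-3 with Trbj2-5: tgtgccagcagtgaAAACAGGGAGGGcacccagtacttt
That of mouse 1, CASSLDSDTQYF, had 11 UMIs in the kidney (1.42%) and 25 in the spleen (0.0156%), where it ranked 53 of all clonotypes. That of mouse 2, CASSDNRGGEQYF, had 28 UMIs in the kidney (2.24%) and 101 in the spleen (0.0449%), where it ranked 5. That of mouse 3, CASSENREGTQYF, had 7 UMIs in the kidney (1.01%) and 11 in the spleen (0.0113%), where it ranked 41. Each was thus present in the spleen of its mouse at a lower share, but a clonotype chosen for its high rank in a library of 693 to 1248 UMIs has a high share there by the choice.
The remaining kidney clonotypes named by the rule were also found in the spleen of their mouse. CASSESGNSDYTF (Trbv13-1) had 8 UMIs in kidney 1 and 35 in spleen 1, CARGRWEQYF (Trbv13-3) had 14 in kidney 2 and 48 in spleen 2, and a Trbv13-1 clonotype with Trbj1-4 had 6 in kidney 3 and 14 in spleen 3.

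Not every large spleen clonotype was seen in the kidney. In mouse 1, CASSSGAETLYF (Trbv13-3 with Trbj2-3) and a Trbv13-3 clonotype with Trbj1-6 ranked 3 and 4 in the spleen with 162 and 150 UMIs and had 0 of 773 UMIs in the kidney, which allows a share of up to 0.388% by a count of 3 and up to 0.476% by the exact interval. Their spleen shares were 0.101% and 0.0936%, so that an equal share in the kidney was below what its depth could show. In mouse 2, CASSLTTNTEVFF (Trbv13-1) had 84 UMIs in the spleen and 2 in the kidney. The Trbv13-2 clonotypes named by the rule were both from spleen 3, with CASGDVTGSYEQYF at 66 UMIs in the spleen and 1 in the kidney and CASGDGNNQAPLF at 34 and 5.

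**Figure D3:**
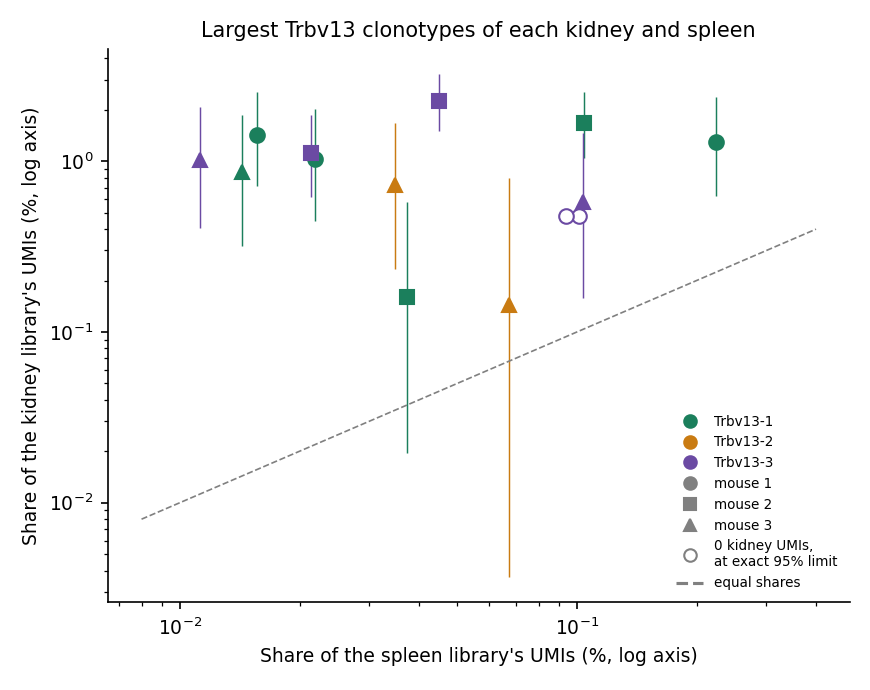
Share of kidney UMIs against share of spleen UMIs of the same mouse (percent, log axes) for the largest Trbv13 clonotypes of each library, with colour for the V gene, symbol for the mouse and exact 95% intervals for the kidney share. Clonotypes with kidney UMIs lie above the dashed line of equal shares, but 1 UMI is already 0.0801% to 0.144% of a kidney library, so that one with a spleen share under this could not lie below the line. The 2 Trbv13-3 clonotypes of mouse 1 with 0 kidney UMIs are drawn open at the exact upper limit of 0.476%.

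The mouse's own spleen held 62 of the 138 family clonotypes of kidney 1 (44.9%), 106 of the 225 of kidney 2 (47.1%) and 59 of the 134 of kidney 3 (44.0%), counting a single spleen UMI as presence. The spleens of the other mice held between 4.00% and 9.70% of them. The mean of 45.4% ± 1.58 (SD, n = 3) was the highest of the 6 ways to assign spleens to kidneys (p = 0.167 in a one-sided exact test, the lowest possible value). By member, the same-mouse mean was 47.9% ± 3.61 for Trbv13-1, 44.8% ± 0.927 for Trbv13-2 and 44.2% ± 2.66 for Trbv13-3, and it was 48.3% ± 4.76 for the other Trbv genes (SD, n = 3 each). The family differed from the other genes by -2.97 ± 3.42 percentage points (SD, n = 3; exact sign-flip permutation test, p = 0.5), which was within the spread between mice. Weighted by kidney UMIs, the overlap was 62.7% ± 10.8 for Trbv13-1, 60.5% ± 7.54 for Trbv13-3 and 50.7% ± 2.64 for Trbv13-2 (SD, n = 3 each). Trbv13-2 lay below the other Trbv genes in 3 of 3 mice by this measure, by a mean of -9.80 ± 6.37 percentage points (SD, n = 3; p = 0.25 in an exact sign-flip test). Family clonotypes with at least 3 kidney UMIs were found in the same spleen in 18 of 21, 10 of 12 and 9 of 10 cases in mice 1, 2 and 3, and those with 1 UMI in 35 of 99, 73 of 178 and 39 of 104.

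**Figure D4:**
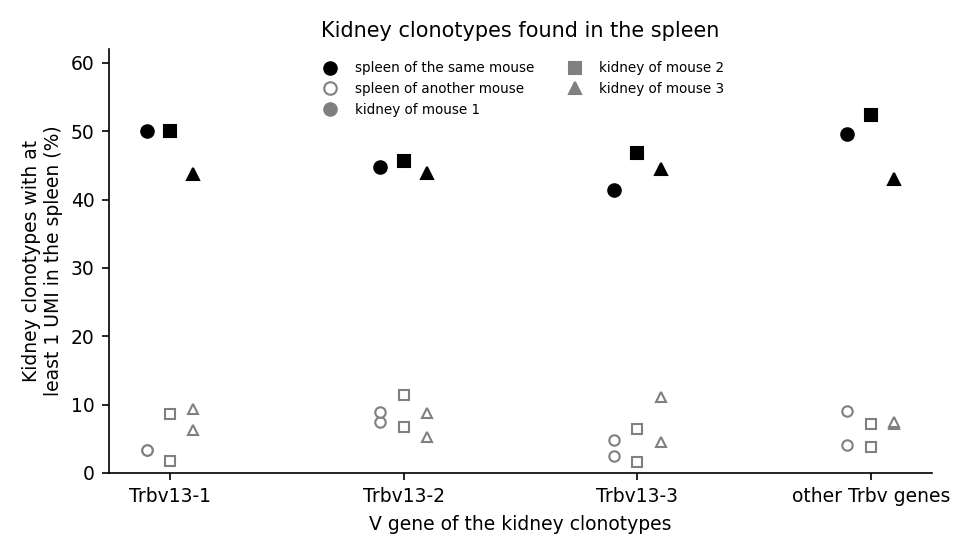
Percent of kidney clonotypes also present in a spleen, that of the same mouse (filled) or that of each of the other mice (open), by V gene of the kidney clonotype, with 1 symbol per kidney. Same-mouse values lie between 41.5% and 52.3% and all other values at or below 11.4%.

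Clonotypes shared between mice were few and had short junctions. Of 86180 distinct family clonotypes of the spleens, 370 (0.429%) were found in all 3 spleens, against 0.472% of those of the other Trbv genes. The share was 0.672% for Trbv13-2 (240 of 35697), 0.289% for Trbv13-3 (79 of 27346) and 0.220% for Trbv13-1 (51 of 23137). Shared family clonotypes had 4.26 bases between V and J on average and the remaining ones 9.14. The V alignment ran past the end of the gene in 15.2% of the family's spleen clonotypes, and with the V part ended at the gene these means were 4.65 and 9.39 bases. The 3 with the most UMIs over the spleens are printed because nearly all of their bases were aligned to a V or J gene. An aligned base need not match the gene. In the third, base 12 is g, where the Trbv13-2 start shown above has t.
Trbv13-2 with Trbj2-7: tgtgccagcggtgatgaacagtacttc
Trbv13-3 with Trbj2-3: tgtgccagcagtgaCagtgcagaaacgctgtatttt
Trbv13-2 with Trbj2-5: tgtgccagcggggaagacacccagtacttt
The first, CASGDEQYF, had 18, 18 and 5 UMIs in spleens 1, 2 and 3 and 1 UMI in kidney 2. The second, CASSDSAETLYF, had 18, 16 and 4 UMIs in the spleens, and the third, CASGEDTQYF, had 23, 4 and 6, with 0 UMIs of either in the kidneys. No family clonotype was found in more than 1 kidney, and 12 of the 497 family clonotypes of the kidneys were in all 3 spleens.

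Finally, the clones left out for a stop codon or a frameshift in the CDR3 were used as a second readout of the same libraries. A T cell can carry a second, failed rearrangement whose transcript encodes no receptor, so that V gene use among such clones is not shaped by the receptor protein. An error in amplification or sequencing can also turn a coding sequence into such a clone, and how many arose in this way was not tested. In the spleens, the family held 16.2%, 16.3% and 17.1% of non-coding UMIs in mice 1, 2 and 3, against 27.3%, 28.7% and 29.0% of coding UMIs. Trbv13-2 held 5.23%, 5.44% and 5.19% of non-coding UMIs, and Trbv13-3 held 4.16%, 4.41% and 5.49%. Both lay far below their coding shares in each spleen. Trbv13-1 held 6.84%, 6.47% and 6.42%, nearer to its coding share. The order of the members among non-coding clones thus differed from that among coding clones, with Trbv13-1 highest in 3 of 3 spleens.

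In edgeR with the mouse as a block, 21 of 24 Trbv genes (87.5%) differed between non-coding and coding clones, and 10 (41.7%) were lower among non-coding clones, the 3 members among them. The log2 fold change of non-coding over coding was -1.08 (SE 0.082, edgeR, adjusted p = 5.6e-17) for Trbv13-2, -1.01 (SE 0.084, adjusted p = 1.3e-15) for Trbv13-3 and -0.24 (SE 0.081, adjusted p = 0.0054) for Trbv13-1. The median of the members was -1.01, against 0.05 over all 24 genes. Outside the family, Trbv1 was as low as Trbv13-3 (-1.01), and Trbv2 (-0.76), Trbv3 (-0.75) and Trbv20 (-0.74) lay below Trbv13-1. Trbv24 and Trbv12-1 held 8.23% and 5.27% of the non-coding UMIs pooled over the spleens, against 0.134% and 0.545% of the coding UMIs. A higher share of some genes lowers the shares of the rest, and how far this moved the members was not tested. TMM scaling moved every gene by about -0.31, which left 8 genes higher and 12 lower, against 11 higher and 10 lower with library sizes alone. The calls of Trbv13-2 and Trbv13-3 held under all 8 alternatives, while that of Trbv13-1 was lost without mouse 1 (-0.29, edgeR, adjusted p = 0.060). Non-coding clones made up 4.04% ± 0.286 of the UMIs of Trbv13-1, 2.29% ± 0.173 of those of Trbv13-2 and 2.43% ± 0.221 of those of Trbv13-3 in the spleens (SD, n = 3 each). The kidneys held 6, 10 and 8 non-coding UMIs of the family, too few to compare the members.

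**Figure D5:**
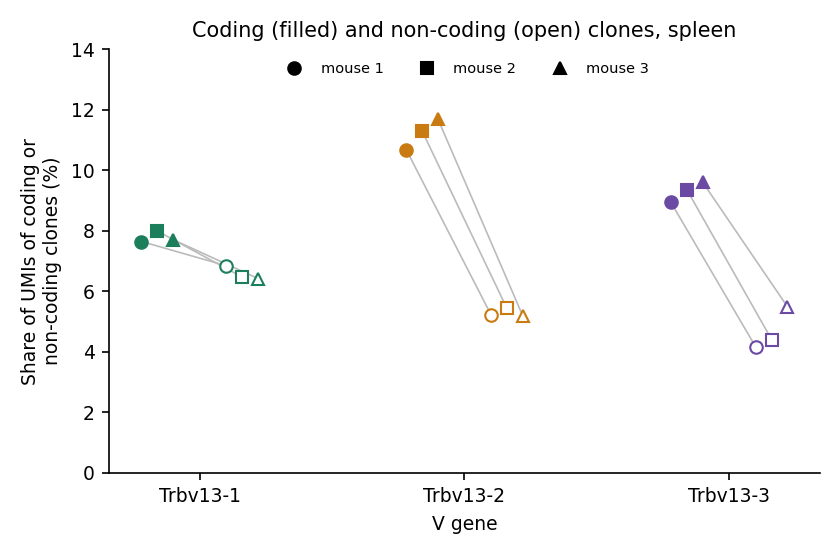
Share of UMIs in percent held by each Trbv13 gene among coding clones (filled) and non-coding clones (open) of the same spleen, with 1 symbol per mouse and a line joining the values of a library. Trbv13-2 and Trbv13-3 drop from 8.94% to 11.7% among coding clones to 4.16% to 5.49% among non-coding clones, and Trbv13-1 from 7.65% to 7.99% to 6.42% to 6.84%.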

How the data were processed

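TCR-β libraries had been made by 5′ RACE with UMIs, and the authors assembled clones from them with MiXCR v4.7.0. For each clone, the deposited values were the UMI count and the read count, both not normalized, the fraction of the library's UMIs and reads, and a quality score, which is the lowest within the CDR3. The deposited fractions and scores were not used for results. R 4.4.2 is named in the submitters' processing notes, with GRCm38 and mm10 as builds. V and J genes, the ends of the V and J alignments and the coding state were taken from the authors' files. Where a clone listed several V genes (0.272% to 0.373% of family clonotypes per spleen, none in the kidneys), the first was taken. Here UMIs were summed per Trbv gene, V-J pair or Trbj gene and tested with edgeR 4.0.16 (quasi-likelihood, library sizes only, at least 10 UMIs, Benjamini-Hochberg adjustment over all genes or pairs). Standard errors were derived from the test statistic. Single values per library were compared by exact permutation over 20 relabellings. All 24 Trbv names match the RefSeq table of GRCm38.p6. The 3 mice are separate animals, and the libraries of 1 mouse pair by the labels (correlation of the deviations from the organ means over 24 genes 0.28, 0.37 and 0.30 in mice 1, 2 and 3). The organ comparisons do not use this pairing. Alternatives changed the normalization, tool, filter, unit counted, V assignment, depth, clonotype definition, block and mice. Python 3.11.15, R 4.3.3 and DESeq2 1.42.0 were used, and the tests were checked on simulated data. For edgeR, these data had the same spread for every gene and no clonotypes. The comparison of non-coding with coding clones was not among those simulated. Named were the 3 members, the Trbv genes most like them, the most and least used Trbj gene and those past the threshold, the 3 largest clonotypes of each library without ties, and the 3 largest found in all spleens. The members and lists were chosen with earlier results of these data known.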

Additional observations from a re-analysis of the deposited data

How the results depend on the processing

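With 3 mice, exact tests of kidney against spleen cannot pass a threshold of 0.05, so their p-values say nothing about stability, and a kidney of 693 to 1248 UMIs limits every kidney value. Where a value moved, the cause was not tested.

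Over all Trbv genes, 1 differed between the organs, against 2 with TMM or DESeq2, 0 with distinct clonotypes (3 at an unadjusted p under 0.05), 0 with the mouse as a replicate block (1 unadjusted) and 0 to 1 without 1 mouse, 0 without mouse 1 or mouse 2 (2 unadjusted each). Of V-J pairs, 2 differed, against 11 with DESeq2, 0 with clonotypes (10 unadjusted), 0 with the block (11 unadjusted) and 0 to 5 without 1 mouse, where mouse 1 gave 5, mouse 2 gave 1 and mouse 3 gave 0 (22 unadjusted). Of Trbj genes of the family against the rest, 6 differed, against 10 with clonotypes, 3 without the block, and 3 to 4 without 1 mouse (3, 3 and 4 without mice 1, 2 and 3). Of these calls, DESeq2 had 3 up of 6 and TMM 4 up of 5, against 4 of 6.

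The log2 fold change of kidney over spleen for Trbv13-1 (0.010) was -0.064 with clonotypes, -0.012 with the mouse as a block and -0.23 to 0.15 without 1 mouse. For Trbv13-2 (-0.054) it was 0.023 with TMM, 0.11 with DESeq2, 0.22 with clonotypes and -0.14 to 0.026 without 1 mouse. For Trbv13-3 (0.013) it was -0.0047 with clonotypes and -0.049 to 0.084 without 1 mouse. The log2 ratio of the Trbv13-3 share of clonotypes (0.0054) was -0.076 after rarefaction and -0.023 to 0.042 without 1 mouse, both tried after seeing the data.

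For the family, the log2 ratio of the UMI share (-0.013) was 0.15 with reads and -0.088 to 0.033 without 1 mouse, and that of the clonotype share (0.072) was -0.062 with at least 2 UMIs per clonotype. With the mouse as a block these values are the same by construction, -0.013 and 0.072 (exact sign-flip permutation test, p = 1.0 and 0.25). Mean CDR3 length (-0.041) was -0.091 to 0.042 without 1 mouse. UMIs per clonotype (0.048) gave -0.084 by amino acids and -0.011 to 0.14 without 1 mouse. The length difference from the other Trbv genes (-0.0030) was 0.027 by clonotypes and -0.0086 to 0.00055 without 1 mouse. The overlap with the same spleen (45.4%) was 58.004% by kidney UMIs, 53.4% by amino acids, 41.4% with spleens rarefied to 97735 UMIs and 35.3% with at least 2 spleen UMIs, and the other mice then held a mean of at most 22.0%.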
